A study of Homo sapiens with 6 samples.

Results

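The glucose transporter gene SLC2A1 and 9 genes for glycolytic enzymes, HK1, HK2, PFKL, ALDOA, GAPDH, PGK1, ENO1, PKM and LDHA, were followed through 6 RNA-seq libraries. They were chosen by name, 10 of the 31142 genes in the deposited table, and each symbol was listed under a single identifier. All 10 passed the filter for testing, a mean of at least 1 FPKM over the 6 libraries (fragments scaled to the length of the transcript and to the mapped fragments of the library), which 10942 genes passed. The libraries came from samples labelled SKM-1, a human acute myeloid leukemia line derived from myelodysplastic syndrome, 3 labelled as expressing U2AF1 with the S34F mutation and 3 labelled as expressing wild-type U2AF1 (WT). U2AF1 is the splicing factor that recognises the AG at the end of introns. Per the study's methods, both forms carried a FLAG tag and were delivered by a lentivirus with a ubiquitin promoter, green fluorescent protein and puromycin resistance, so that the introduced copy was present beside the cells' own U2AF1. The labels give 96 h for both groups. They also speak of a vehicle control, and the WT titles carry the prefix that the study uses for negative controls, so the grouping rests on the genotype in the titles. The study describes 3 pairs of independent RNA samples, without saying what paired them. The labels do not say whether the 3 samples of a group were separate cultures, and p-values then measure only the spread between these samples.

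Glycolysis splits glucose into pyruvate in the cytosol. Facilitative transporters bring glucose in, hexokinases and phosphofructokinase spend ATP on it, aldolase splits the sugar, and the later enzymes from GAPDH to pyruvate kinase regain ATP and produce NADH. Lactate dehydrogenase turns pyruvate into lactate and restores NAD+. Blood cell precursors and leukemia cells use the pathway heavily, red cells depend on it for ATP, and several of its genes are known targets of the hypoxia-inducible factors.

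The libraries' summed FPKM ran from 335673 to 353709, and the step between low values of single-exon genes put the depth at roughly 20.8 M to 26.4 M fragments. The third replicates of both groups stood apart: their deviations from the group means correlated at r = 0.38 across genes with each other. With those of the other group's libraries numbered 1 and 2 they correlated at -0.205 to -0.295. Deviations within a group sum to 0, so these negative values go with the positive one and are not separate evidence. In bulk RNA, fewer cells of a type and less RNA per cell cannot be told apart. Of 10 monocytic markers, which would fit the labelled line, 7 had a mean under 1 FPKM, and MPO, S100A8 and FCN1 were listed at 0 in 4, 5 and 5 of the 6 libraries, while all 10 erythroid markers passed the filter. The summed FPKM of the erythroid markers was 12180, 11915 and 10790 in S34F replicates 1, 2 and 3 and 11162, 11163 and 10601 in the WT replicates, and that of the monocytic markers lay between 44.0 and 85.4. HBE1 and HBG2, embryonic and fetal globins, led the erythroid list, and CD68, a lysosomal protein of macrophages, and LYZ, lysozyme, led the monocytic one. High erythroid and mostly low monocytic markers go against the label SKM-1, although CD68, LYZ and ITGAM passed the filter. The line is therefore named here by its label only, and its identity was not tested. The part of the cells' type in the results below was not tested.

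The study used GAPDH as the reference gene for its qRT-PCR, so the GAPDH primers are shown here with their match to the gene and to its pseudogenes.
GAPDH forward primer: gcaccgtcaaggctgagaaC
GAPDH reverse primer: gtggtgaagacgccagtgga
Among the 206694 transcripts of GENCODE 29, both primers matched 10 of the 11 GAPDH transcripts without a mismatch and 0 transcripts of other genes. The product had 139 bases in 5 of the 6 protein-coding transcripts matched and up to 268 bases in transcripts that keep an intron. A further 6 genes matched 1 of the primers in full. GAPDHP1, the one GAPDH pseudogene with a mean of at least 1 FPKM, matched the reverse primer fully and the forward primer with the difference C20T, counted from 1 at the primer's 5′ end and marked by the capital.

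To show the regulatory sequence of the members that varied most and least between libraries, the 250 bases before the first RefSeq start (GRCh38.p14) are given for HK2 and LDHA, with the widest range, and for PKM and PGK1, with the narrowest. Capitals mark ACGTG and GCGTG on either strand, the cores of the element that hypoxia-inducible factors recognise.
HK2 (chr2:74833877-74834126, plus strand): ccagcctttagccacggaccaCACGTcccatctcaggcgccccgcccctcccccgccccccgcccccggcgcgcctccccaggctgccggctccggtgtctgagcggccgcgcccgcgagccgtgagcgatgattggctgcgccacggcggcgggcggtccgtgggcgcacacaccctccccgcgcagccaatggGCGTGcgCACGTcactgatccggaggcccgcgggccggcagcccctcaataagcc
LDHA (chr11:18394313-18394562, plus strand): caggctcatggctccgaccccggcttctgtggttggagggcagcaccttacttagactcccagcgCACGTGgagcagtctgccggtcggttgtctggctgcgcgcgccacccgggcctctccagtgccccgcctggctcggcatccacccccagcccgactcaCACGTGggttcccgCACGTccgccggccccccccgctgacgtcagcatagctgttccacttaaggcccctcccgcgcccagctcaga
PKM (chr15:72231191-72231440, minus strand): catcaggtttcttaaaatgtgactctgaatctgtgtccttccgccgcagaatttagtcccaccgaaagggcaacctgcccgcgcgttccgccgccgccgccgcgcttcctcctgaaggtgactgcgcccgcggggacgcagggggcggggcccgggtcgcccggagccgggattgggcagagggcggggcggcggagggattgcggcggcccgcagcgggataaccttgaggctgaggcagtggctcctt
PGK1 (chrX:78103998-78104247, plus strand): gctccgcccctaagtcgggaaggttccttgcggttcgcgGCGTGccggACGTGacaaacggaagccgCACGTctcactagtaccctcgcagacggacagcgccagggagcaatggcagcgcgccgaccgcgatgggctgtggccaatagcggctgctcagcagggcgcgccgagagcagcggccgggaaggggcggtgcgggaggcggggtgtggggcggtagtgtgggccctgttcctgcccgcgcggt
The LDHA window held ACGTG 5 times over both strands, of which CACGTG, which reads the same on both strands and so counts on each, held 4 at 2 sites. HK2 held ACGTG 2 times and GCGTG once, PGK1 did the same, and the PKM window held neither. Of the first windows of the 10 members, 7 held ACGTG or GCGTG, against 43.2% of the 35116 windows of this length in the RefSeq table, and 7 held the GC box GGGCGG, against 42.6%. The member figures count 1 window per gene, although HK1, for example, has 7 windows. HK2 has a second window, with ACGTG 4 times and GCGTG 2 times, and the second window of LDHA holds GCGTG 1 time. The first windows of the members ran from 46.8% GC for HK1 to 78.0% for PFKL, and the shares were not matched for GC. The 2 sides are therefore not alike, and no enrichment was tested. These are matches of letters, and both the widest and the narrowest ranges occurred among genes that hold them.

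Levels per length spanned a wide range, and the top 3 genes and the lowest pair kept their order in 6 of 6 libraries. GAPDH, which oxidises glyceraldehyde 3-phosphate, led with a mean of 1205 FPKM, followed by the enolase ENO1 at 694 and the aldolase ALDOA at 312 FPKM, and the ranges of these 3 genes over the 6 libraries did not overlap. Then came HK1 at 116, PGK1 at 99.5, LDHA at 91.7, PKM at 67.4 and SLC2A1 at 64.2 FPKM, each overlapping its neighbour in range. Their order changed between libraries, with HK1 above PGK1 in 5 of 6, PGK1 above LDHA in 3, LDHA above PKM in 5 and PKM above SLC2A1 in 4. PFKL at 16.02 and HK2 at 10.6 FPKM were the lowest, with overlapping ranges, though PFKL exceeded HK2 in 6 of 6 libraries. GAPDH ranked 36th and ENO1 60th among all genes by mean FPKM, and the 10 genes together held between 0.649% and 0.858% of the summed FPKM of a library.

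The comparison of S34F with WT asks whether mutant U2AF1 goes with another level of these transcripts. With limma, 0 of the 10 genes had an unadjusted p under 0.05, against 2.39% of all genes tested, and 0 passed a fold change above 1.5 with an unadjusted p under 0.05, against 0.585%. After Benjamini-Hochberg adjustment, 0 of all genes tested had an adjusted p under 0.05, which was 0% of them, and the adjusted p was 1 for each of the 10 genes by limma. In 0 of the 10 were the groups free of overlap, against 7.38% of the genes tested (3.66% with S34F above WT and 3.73% below). The log2 fold change was above 0 for 7 genes and below 0 for 3, with a median of 0.043 against 0.015 over all genes tested. The share of summed FPKM held by the 10 genes was 0.785% ± 0.118 (SD, n = 3) in S34F and 0.767% ± 0.0679 (SD, n = 3) in WT (exact permutation p = 0.7, two-sided). For 8 of the 10 genes the 95% interval of the difference lay inside a 1.5-fold change in either direction. HK2 and LDHA had intervals reaching past it. When the replicate number was fitted as a block, the interval lay inside 1.5-fold for 10 of 10 genes, and 0 had an unadjusted p under 0.05 from limma, against 4.05% of the genes tested.

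SLC2A1 encodes GLUT1, the widely expressed transporter through which glucose enters by facilitated diffusion (ENSG00000117394, chromosome 1 of GRCh38 from 42925375 to 42959176, minus strand). It had 72.1, 67.5 and 62.8 FPKM in S34F replicates 1, 2 and 3 and 65.5, 65.4 and 52.1 FPKM in WT replicates 1, 2 and 3. Each S34F library was above the WT library of the same number, yet S34F replicate 3 was under WT replicates 1 and 2. The log2 fold change was 0.15 (standard error 0.13, 95% interval -0.15 to 0.45, unadjusted p = 0.276 from limma, exact permutation p = 0.4). SLC2A1-AS1 on the opposite strand, which shares 128 exon bases with it, averaged 1.08 FPKM.

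Hexokinases phosphorylate glucose and so trap it in the cell. HK1, the form that most tissues express and that also has a transcript of red cells (ENSG00000156515, chromosome 10 from 69269984 to 69401884, plus strand), had 121, 121 and 106 FPKM in the S34F replicates and 123, 129 and 94.8 FPKM in the WT replicates. The third library was the lowest in each group, and the groups overlapped, with a log2 fold change of 0.02 (standard error 0.14, 95% interval -0.32 to 0.35, unadjusted p = 0.918 from limma). HK2, the inducible form known from muscle and tumour cells (ENSG00000159399, chromosome 2 from 74833981 to 74893359, plus strand), had 13.1, 12.6 and 7.17 FPKM in S34F and 11.9, 12.3 and 6.67 FPKM in WT. Replicates 1 and 2 of both groups were alike and both replicates numbered 3 were far lower, at 0.557 and 0.552 of the mean of the first and second in S34F and WT. S34F exceeded WT by little in 3 of 3 pairs, with a log2 fold change of 0.09 (standard error 0.29, 95% interval -0.60 to 0.78, unadjusted p = 0.772 from limma). With the block the interval narrowed to -0.14 to 0.31, with an unadjusted p of 0.363.

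PFKL is the liver-type subunit of phosphofructokinase, which catalyses the committed step (ENSG00000141959, chromosome 21 from 44300051 to 44327376, plus strand). It had 18.7, 17.4 and 11.4 FPKM in the S34F replicates and 16.3, 16.3 and 16.1 FPKM in the WT replicates. S34F replicates 1 and 2 lay above all WT libraries and S34F replicate 3 below all of them. The log2 fold change was -0.06 (standard error 0.18, 95% interval -0.50 to 0.38, unadjusted p = 0.747 from limma), and it was 0.15 without S34F replicate 3, with an unadjusted p of 0.103.

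ALDOA cleaves fructose 1,6-bisphosphate (ENSG00000149925, chromosome 16 from 30064164 to 30070457, plus strand). It had 312, 307 and 291 FPKM in S34F and 345, 270 and 347 FPKM in WT, so the WT libraries lay on both sides of the S34F ones. The log2 fold change was -0.07 (standard error 0.12, 95% interval -0.36 to 0.22, unadjusted p = 0.574 from limma). A protein-coding gene on the same strand, ENSG00000285043, shares 1657 exon bases with ALDOA, and the assignment of reads between them is uncertain. That gene had 83.4, 89.7 and 24.6 FPKM in S34F and 32.5, 88.2 and 28.3 FPKM in WT, and WT replicate 2, where ALDOA was lowest, was among its 3 high libraries. The sum of both was 395, 397 and 315 FPKM in S34F and 377, 358 and 375 FPKM in WT, with a log2 difference of -0.012 (exact permutation p = 1).

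GAPDH (ENSG00000111640, chromosome 12 from 6533927 to 6538374, plus strand) had 1313, 1348 and 909.7 FPKM in the S34F replicates and 1319, 1315 and 1028 FPKM in the WT replicates. The 4 libraries numbered 1 and 2 lay between 1313 and 1348 FPKM, and both replicates numbered 3 were lower, S34F replicate 3 being the lowest. Between the groups the log2 fold change was -0.05 (standard error 0.18, 95% interval -0.48 to 0.38, unadjusted p = 0.794 from limma, exact permutation p = 0.8). Its highest library had 1.48 times the FPKM of its lowest. When each library was scaled to its GAPDH value, the log2 fold changes of the other 9 genes ran from -0.022 for ALDOA to 0.198 for SLC2A1, and 0 of them had an unadjusted p under 0.05. The 18 GAPDH pseudogenes in the table summed to between 0.675% and 0.977% of the GAPDH value. An antisense gene that shares 422 exon bases, AC006064.4, had 4.08, 5.14 and 0.0238 FPKM in S34F and 4.52, 0.186 and 30.4 FPKM in WT.

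PGK1, phosphoglycerate kinase, makes the first ATP of the pathway's second part (ENSG00000102144, chromosome X from 77910739 to 78129296, plus strand). It was the steadiest of the 10 genes, with 105, 103 and 94.8 FPKM in S34F and 97.3, 98.6 and 97.5 FPKM in WT. The highest library had 1.11 times the FPKM of the lowest, and the log2 fold change was 0.05 (standard error 0.09, 95% interval -0.17 to 0.26, unadjusted p = 0.623 from limma).

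ENO1, the main enolase outside muscle and neurons (ENSG00000074800, chromosome 1 from 8861000 to 8879250, minus strand), had 765, 788 and 569 FPKM in S34F and 687, 691 and 664 FPKM in WT. The WT libraries lay close together, with S34F replicates 1 and 2 above and S34F replicate 3 below all of them, the same arrangement as for PFKL. The log2 fold change was 0.04 (standard error 0.14, 95% interval -0.28 to 0.36, unadjusted p = 0.776 and adjusted p = 1 from limma). Without S34F replicate 3 it was 0.19 (95% interval 0.04 to 0.33, unadjusted p = 0.0193 and adjusted p = 0.367 from limma), in a fit where 10.6% of all genes had an unadjusted p under 0.05. Without both replicates numbered 3 it was 0.17 (unadjusted p = 0.00825 and adjusted p = 0.17 from limma), where 16.9% of all genes did. In these 2 fits ENO1 alone of the 10 genes had an unadjusted p under 0.05.

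PKM encodes the muscle-type pyruvate kinases, whose M1 and M2 forms come from alternative exons and cannot be told apart in gene values (ENSG00000067225, chromosome 15 from 72199029 to 72231822, minus strand). It had 70.9, 71.5 and 67.3 FPKM in the S34F replicates and 70.6, 60.9 and 62.9 FPKM in the WT replicates. S34F was higher in 3 of 3 pairs, though WT replicate 1 lay above S34F replicate 3. Its log2 fold change of 0.11 (standard error 0.10, 95% interval -0.13 to 0.35, unadjusted p = 0.306 from limma) came with an exact permutation p of 0.2, the smallest among the 10 genes, where 3 libraries against 3 cannot give a two-sided p under 0.1.

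LDHA, the lactate dehydrogenase subunit that favours lactate formation (ENSG00000134333, chromosome 11 from 18394388 to 18408425, plus strand), had 110, 118 and 61.7 FPKM in S34F and 85.4, 107 and 67.4 FPKM in WT. Both replicates numbered 3 were the lowest of their groups, at 0.540 of the mean of the first and second in S34F and 0.701 in WT. For LDHA the log2 fold change came to 0.13 (standard error 0.28, 95% interval -0.54 to 0.79, unadjusted p = 0.665 from limma), and 0.42 without S34F replicate 3 (unadjusted p = 0.0784). The 3 LDHA pseudogenes in the table summed to between 4.52% and 5.78% of the LDHA value. LDHAP4, the highest of them, had 4.61, 5.49 and 3.08 FPKM in S34F and 4.62, 5.17 and 3.17 FPKM in WT, so that the third replicate was the lowest of each group as well.

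The third replicate was the lowest of its group in both groups for 7 genes, SLC2A1, HK1, HK2, PFKL, GAPDH, ENO1 and LDHA, which is set against 29.4% of all genes tested, and it was the highest in both groups for 0 of the 10, against 21.3%. For ALDOA, PGK1 and PKM it was the lowest in S34F and not in WT. The summed FPKM of the 10 genes was 2901, 2955 and 2180 in the S34F replicates and 2821, 2765 and 2436 in the WT replicates. What set the third replicates apart was not tested. The within-group SD on the log2(FPKM + 1) scale had a median of 0.185 over the 10 genes and 0.181 over all genes tested, with the lowest value, 0.056, for PGK1 and the highest, 0.443, for HK2. The genes outside the pathway lists whose pattern over the 6 libraries came closest to the mean of the 10 were PRMT5, an arginine methyltransferase, MDH2, mitochondrial malate dehydrogenase, and GDF11, a secreted factor of the TGF-beta family. They differed from that mean by 0.0183, 0.0200 and 0.0213 on average over the 6 libraries on the log2 scale, against a median of 0.170 over all genes outside the lists. As they were picked for the smallest difference, a value under that median was fixed by the choice. GDF11 averaged only 1.55 FPKM, a level at which this scale understates changes.

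**Figure D1:**
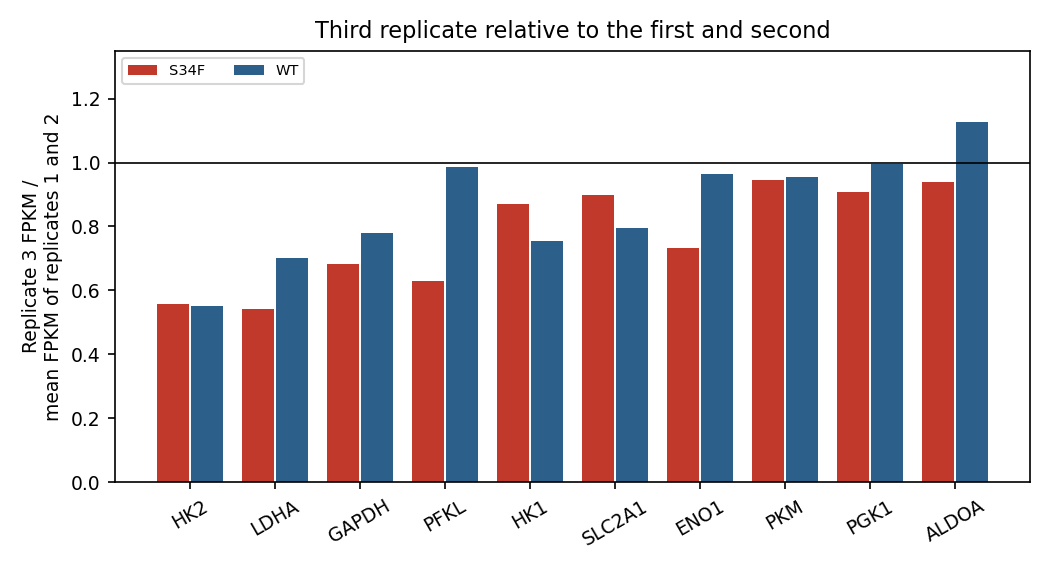
FPKM of the third replicate divided by the mean FPKM of the first and second replicate of the same group, for S34F (red) and WT (blue), with the genes ordered by the mean of both ratios. HK2 and LDHA have the lowest ratios, and only ALDOA in WT, at 1.13, is above 1.

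Glycolytic steps are catalysed by families of isoenzymes, and their balance was read as ratios of FPKM within a library. HK2 was a small part of the hexokinases, at 0.0935 ± 0.0222 (SD, n = 3) of HK1 in S34F and 0.0875 ± 0.0148 (SD, n = 3) in WT. LDHA was lower than LDHB, the subunit typical of oxidative tissues, in 6 of 6 libraries, at a ratio of 0.659 ± 0.144 (SD, n = 3) in S34F and 0.604 ± 0.0854 (SD, n = 3) in WT. PFKL had 0.616 ± 0.0149 (SD, n = 3) of the summed FPKM of PFKM, the muscle form, and PFKP, the platelet form, in S34F and 0.628 ± 0.0894 (SD, n = 3) in WT. In the remaining families the member studied here dominated. ENO1 exceeded the neuronal enolase ENO2 86.2 ± 17.7 times (SD, n = 3) in S34F and 105 ± 26.7 times (SD, n = 3) in WT, with the lower ratio in S34F in 3 of 3 pairs. ALDOA exceeded ALDOC, the aldolase of brain, 9.01 ± 3.98 times (SD, n = 3) in S34F and 9.84 ± 1.54 times (SD, n = 3) in WT, and SLC2A1 exceeded SLC2A3, the high-affinity transporter GLUT3, 12.2 ± 6.69 times (SD, n = 3) in S34F and 9.47 ± 1.39 times (SD, n = 3) in WT. In S34F replicate 3 these 2 ratios were 13.6 and 19.9, the highest of the 6 libraries. Without that library the log2 difference between S34F and WT turned from 0.25 to -0.17 for SLC2A1 to SLC2A3 and went from -0.20 to -0.54 for ALDOA to ALDOC. The exact permutation tests of the 6 ratios gave two-sided p from 0.5 to 1, and 1 for each after Benjamini-Hochberg adjustment over the 6. PKLR, the pyruvate kinase of liver and red cells, named here after its values were seen, had 47.8, 48.3 and 28.2 FPKM in S34F and 39.7, 40.1 and 31.7 FPKM in WT, under PKM in every library.

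**Figure D2:**
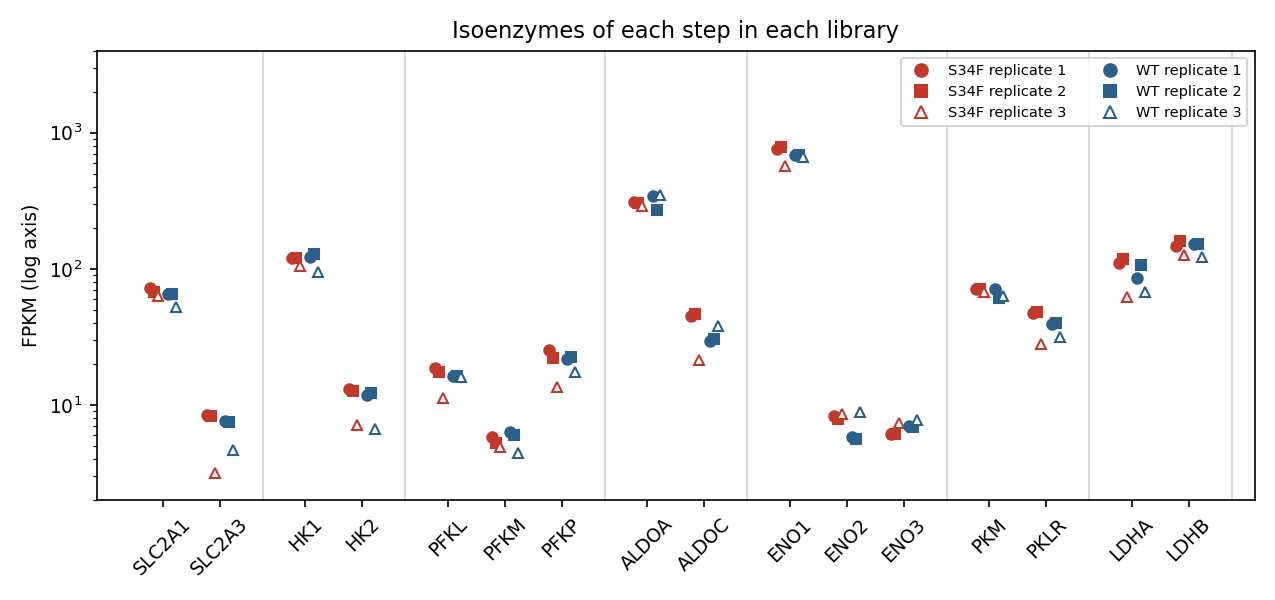
FPKM of the isoenzymes of each step in each library on a log axis, S34F in red and WT in blue, with the replicate number as the symbol. HK1 lies above HK2, ENO1 above ENO2 and ENO3, and LDHB above LDHA in every library, and PFKP lies a little above PFKL.

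The rest of glucose metabolism was read from lists written from knowledge of the pathway. Of 22 other glycolytic enzymes and isoenzymes listed, 18 were in the table and 13 were tested. Of these, 0 rose and 0 fell at an unadjusted p under 0.05 from limma, against 2.39% of all genes tested. In lists this short, a count of 0 lies near that share. The median log2 fold change was 0.11. TPI1, which interconverts the triose phosphates, averaged 221 FPKM with a log2 fold change of 0.11 (unadjusted p = 0.498 from limma), and LDHB averaged 144 FPKM with 0.02 (unadjusted p = 0.895). The third replicate was the lowest of both groups for 7 of the 13. Of 13 other glucose transporters, 2 were tested, SLC2A3 and SLC2A8, with log2 fold changes of -0.07 and -0.01, and neither passed at an unadjusted p under 0.05. Regulators of the early steps had 5 of 8 genes tested, 0 of them passing, against the same 2.39% of all genes tested. TXNIP, an inhibitor of glucose uptake, had a mean of 98.1 FPKM and a log2 fold change of -0.15 (unadjusted p = 0.155 from limma). All its S34F libraries lay under all WT libraries, as for 3.73% of all genes tested. PFKFB4, which sets the level of the phosphofructokinase activator, had a mean of 9.37 FPKM and a log2 fold change of 0.05.

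In the routes that leave glycolysis the count of genes passing was 0 as well, against 2.39% of all genes tested, a share near 0 in lists this short. Lactate export and pyruvate entry had 13 of 19 genes tested and a median log2 fold change of 0.068. BSG, the partner protein of the lactate transporters, averaged 377 FPKM with a log2 fold change of 0.00, and SLC16A1, the transporter MCT1, averaged 18.4 FPKM with 0.66 (unadjusted p = 0.078 from limma). SLC16A1 had 20.2, 27.4 and 19.4 FPKM in S34F and 19.7, 7.82 and 15.9 FPKM in WT, and WT replicate 1 lay within the S34F range. In the pentose phosphate pathway 9 of 12 genes were tested, with a median of -0.014, and TALDO1 and PGD, at means of 151 and 114 FPKM, both had a log2 fold change of -0.01. Gluconeogenesis and glycogen had 11 of 19 genes tested and a median of 0.020, with GYS1, glycogen synthase, at -0.07 and PYGB, a glycogen phosphorylase, at -0.04. The glycerol and serine branches had 6 of 8 genes tested and a median of -0.059, with SHMT2, the mitochondrial serine hydroxymethyltransferase, at -0.13 and PSAT1, of serine synthesis, at -0.06. With the replicate block, H6PD of the pentose phosphate list and G6PC3 of the gluconeogenesis list had unadjusted p of 0.0436 and 0.0348 from limma. They were 1 of 9 and 1 of 11 genes tested in their lists. In that fit 4.05% of all genes tested had an unadjusted p under 0.05, and 0 had an adjusted p under 0.05. For H6PD all S34F libraries lay below all WT libraries, as for 3.73% of all genes tested. For SHMT1 of the serine list they all lay above, as for 3.66%.

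The deposited table annotates 9 of the 10 genes, all but PKM, to the KEGG pathway of HIF-1 signaling. Of 20 hypoxia factors and targets outside glycolysis that were listed, 17 were tested, 15 with a log2 fold change above 0 and 2 below. Their median was 0.096, against 0.015 over all genes tested. BNIP3, a mitophagy receptor, was the only one to pass, where 2.39% of all genes tested did. It had 7.22, 7.72 and 8.20 FPKM in S34F and 5.81, 5.81 and 6.78 FPKM in WT. All S34F libraries lay above all WT libraries, and its log2 fold change was 0.29 (unadjusted p = 0.033 and adjusted p = 1, both from limma). The third replicate was the highest of each group, opposite to LDHA and HK2. EGLN1 and ANKRD37 also had all S34F libraries above all WT libraries (unadjusted p = 0.076 and 0.283 from limma). Over all genes tested, 3.66% had S34F above WT without overlap. EPAS1, one of the 2 below 0, had the largest change of the list in either direction. Its log2 fold change was -0.41 (unadjusted p = 0.0782 from limma), with overlapping groups. VHL, of the complex that degrades the factors, had 0.06, and EGLN2, an oxygen-sensing hydroxylase, had 0.12, and neither passed at an unadjusted p under 0.05. The third replicate was the lowest of both groups for 2 of the 17. Over the 67 tested genes of the KEGG HIF-1 pathway, which include 9 of the genes studied here, 0 passed at an unadjusted p under 0.05 from limma, with a median of 0.046, and over the 38 tested genes of KEGG glycolysis and gluconeogenesis, which also include 9, 0 passed, with a median of 0.017. Of the cell type markers, 0 of 10 erythroid genes passed. Among 3 monocytic genes tested ITGAM, an integrin of myeloid cells, fell by 0.52 on the log2(FPKM + 1) scale (unadjusted p = 0.0148 and adjusted p = 1, both from limma). Its mean was 3.03 FPKM in WT and 1.81 FPKM in S34F, levels at which this scale understates changes.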

How the data were processed

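RNA-seq was analysed in 6 libraries, 3 S34F and 3 WT, grouped by their titles. Per the file headers, the authors deposited FPKM per gene and library, and the values are not whole numbers, although the table's name speaks of raw counts. StringTie and edgeR are named in the submitters' processing notes, without versions. The aligner, build and annotation are not given in the sources used here. The authors' fold changes, p-values and q-values per gene were not used.

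Genes with a mean of at least 1 FPKM were tested on log2(FPKM + 1) by limma 3.58.1 (R 4.3.3) with a mean-variance trend and no pairing, with Benjamini-Hochberg adjustment over all 10942 genes. On this scale the change of low genes is understated. Exact permutation tests over the libraries were two-sided (scipy 1.17.1). The fit was tested on simulated data. The 10 genes and the lists were chosen with earlier results of these data known. Beyond the 10 genes and the isoenzymes, the text names the genes of each list with an unadjusted p under 0.05 and the 2 with the highest mean FPKM. Outside this rule, EGLN1, ANKRD37, EPAS1, SHMT1, MPO, S100A8 and FCN1 were named after their values were seen. H6PD and G6PC3 were named for their p with the replicate block. For coordinates, 31002 of the 31142 identifiers were found in GENCODE 29 (GRCh38), and promoter windows were taken from RefSeq. The primers came from the study's list.

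Libraries with the same replicate number deviated from their group means together, with correlations across genes of 0.212, 0.174 and 0.38 for numbers 1, 2 and 3. Libraries numbered 1 and 2 also correlated across numbers, at 0.197 for S34F 2 with WT 1 and 0.134 for S34F 1 with WT 2, so only number 3 stood apart from the others. As every same-number correlation was over 0.1, a block was fitted as an alternative. These 2 pairs of different numbers passed that limit too, and deviations within a group sum to 0. The limit therefore could not show a pairing of numbers 1 and 2. With the block, 443 genes had an unadjusted p under 0.05, against 262 without it. The other alternatives were 4 scalings, other pseudocounts and filters, no trend, robust empirical Bayes, and libraries left out.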

Additional observations from a re-analysis of the deposited data

How the results depend on the processing

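The count of the 10 genes past a fold change above 1.5 with an unadjusted p under 0.05 from limma stayed at 0 in all 19 alternatives, the replicate block included, and their median log2 fold change ran from -0.036 to 0.142 over the fits that each left out a library. With the replicate block the median was 0.0433, as without it, and the block changed no call of the 10 genes. Directions were less stable: of 189 values of single genes in the alternatives, 21 changed sign, 166 kept it and stayed at an unadjusted p over 0.05, and 2, both of ENO1, kept it and passed. SLC2A1, PGK1 and PKM kept their sign in all alternatives. HK1 was -0.00097 with upper quartile scaling, and with quantile normalization HK1 was -0.0198 and ENO1 -0.0111. Over the fits without a library HK1 ran from -0.12 to 0.0979, HK2 from -0.169 to 0.342, PFKL from -0.191 to 0.147, GAPDH from -0.168 to 0.133, ENO1 from -0.045 to 0.19 and LDHA from -0.0454 to 0.419. Without both replicates numbered 3 HK1 was -0.0544, PFKL 0.14, ALDOA 0.0197 and GAPDH 0.0141. In the lists of glucose metabolism and hypoxia, 0 genes passed both limits in the main comparison, 0 to 1 without a library (EPAS1 at -0.64 without S34F replicate 3, SLC16A1 at 0.92 without WT replicate 1) and 2 without both replicates numbered 3 (EPAS1 at -0.67, ALDOC at 0.60). Of the cell type markers, 0 passed both limits in the main comparison, LYZ (-0.96) and ITGAM (-0.63) did without S34F replicate 3, ITGAM (-0.64) without WT replicate 3, both (-0.96 and -0.76) without both replicates numbered 3, and ITGAM (-0.71) with a pseudocount of 0.1. Among the isoenzyme ratios, leaving out a library turned the log2 difference of SLC2A1 to SLC2A3 (-0.17 to 0.47), HK2 to HK1 (-0.07 to 0.30) and PFKL to PFKM plus PFKP (-0.08 to 0.10). The cause of these changes was not tested. Over the whole table, limma gave 262 genes an unadjusted p under 0.05, against 443 with the block, 472 with the block and median-ratio scaling (chosen after seeing the data), 904 without the filter, where 31142 were tested, 113 of 5649 at a mean of at least 5 FPKM, 117 when scaled to GAPDH, 162 to 1160 without a library and 1846 without both replicates numbered 3. FPKM keep no fragment counts, so no interval of counting error was given.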
